A study of Rattus norvegicus with 3 samples.

Results

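The epidermal growth factor (EGF) family was followed across the 3 major salivary glands of the rat as 10 genes, 7 ligands (Egf, Tgfa, Areg, Ereg, Hbegf, Btc and Nrg1) and 3 receptors (Egfr, Erbb2 and Erbb3). The members were chosen by name: every probe for a gene whose symbol on the array is that of a member was taken, which gave 12 probes of 41012 and 10 gene names of 35727. Nrg1 and Egfr had 2 probes each and the others 1. Total RNA of the parotid, the submandibular and the sublingual gland of normal, untreated male Wistar rats, 10 weeks old, was hybridised to 1-colour expression arrays, 1 array per gland. The design names 3 rats; whether an array holds RNA of 1 animal or of several is not stated. With 1 array per gland there are no replicates and no test can be made, so the number of arrays limits the precision of every difference below. The 3 arrays shared 1 slide and 1 scan, so a gland and its place on that slide cannot be told apart.

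EGF family ligands are made as membrane-anchored precursors that are cut loose by proteases, and they act on the ErbB receptor tyrosine kinases of the same or neighbouring cells. EGF, transforming growth factor alpha, amphiregulin, epiregulin, heparin-binding EGF and betacellulin bind the EGF receptor, while neuregulins bind ErbB3 and ErbB4. ErbB2 binds no known ligand and signals as the partner of the others, and ErbB3, whose kinase is weak, depends on such a partner. The rodent submandibular gland is a classical source of EGF, which its granular convoluted duct cells secrete into saliva, and the family also governs branching of the embryonic gland.

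A level below is the log2 of the processed signal minus the log2 of the signal at the 75th percentile of that array, which was 186, 228 and 244 on the parotid, submandibular-labelled and sublingual arrays. Of the gene names, 54.4%, 52.3% and 54.7% were well above background, and the lowest signal that was so was 17.2, 19.1 and 18.3. Spots of one probe printed repeatedly on an array had a median SD of 0.087, 0.080 and 0.079 log2 units. This SD covers spots of one hybridisation, and neither labelling nor animals. The labels were checked against marker genes: the summed linear level of 8 serous acinar products was 8333 on the parotid array against 7.71 and 13.6, and that of 8 mucous cell genes was 37.0 against 1607 and 1600. The 10 measured of 12 granular convoluted duct genes summed to 509, 554 and 433, and none of the 9 that could be compared was 2-fold higher on the submandibular array than on the parotid array. Among these duct genes Klk1, tissue kallikrein, had levels of 7.54, 7.72 and 7.37. Across all gene names this array lay close to the sublingual array, with 2.29% of 19942 at least 2-fold apart. These values do not show that it holds submandibular gland, so it is called submandibular-labelled throughout, and each of its values is that of the array with this label.

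Of the 10 members, 5 were well above background on all 3 arrays: the ligands Egf, Tgfa and Nrg1 and the receptors Egfr and Erbb2. Hbegf was so on the parotid array alone, and Areg, Ereg, Btc and Erbb3 on none. Egf, Egfr and Erbb2 had their highest level in the parotid gland, whereas Tgfa and Nrg1 had their lowest level there. The plot of levels by array shows every probe.

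**Figure D1:**
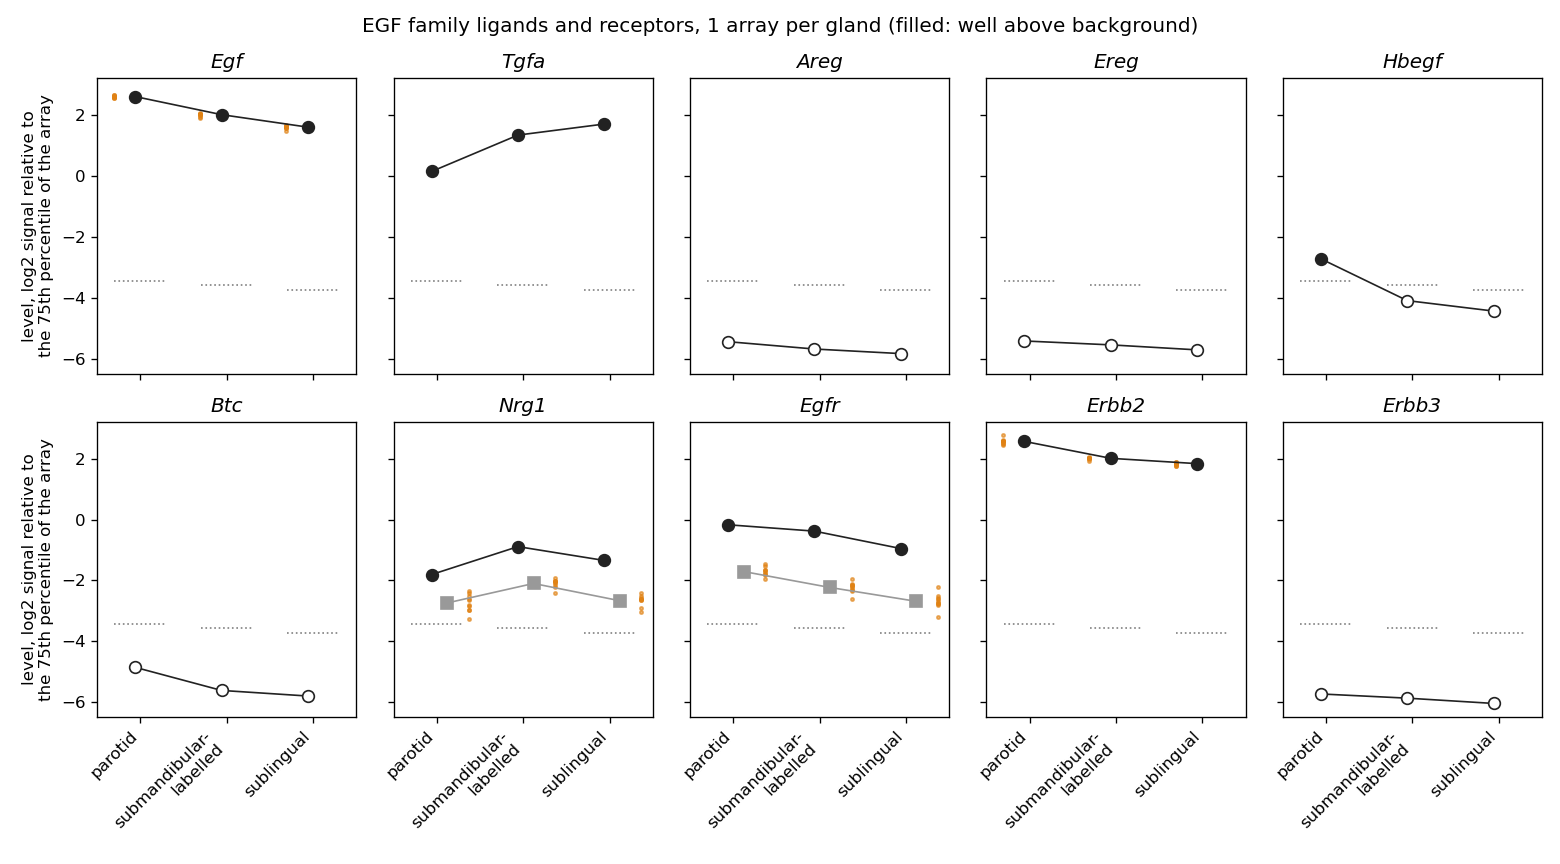
Level (log2 signal relative to the 75th percentile of the array) of each member on the 3 arrays, 1 array per gland; black circles are the brighter or only probe of a gene, grey squares a second probe, orange dots the repeat spots of probes printed 10 times, and dotted lines the lowest level well above background. Open symbols are not well above background: Areg, Ereg, Btc and Erbb3 on every array, and Hbegf on the submandibular-labelled and sublingual arrays.

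Egf and Tgfa are described first because these ligands of the same receptor differed in opposite directions. The 250 bases before their RefSeq transcription starts are shown (rat build GRCr8, each on the strand of its gene, written 5′ to 3′), together with those of Areg, a ligand whose signal was within the background of every array. Egf lies on the minus strand at chr2:220976298-220976547, Tgfa on the plus strand at chr4:120175469-120175718 and Areg on the minus strand at chr14:17265642-17265891. Capitals mark every match, on either strand, to the letters GGGCGG (GC box), TATAAA (the TATA box), TTTAAA (a near variant of it), CCAAT (a box bound by nuclear factor Y), TGACGTCA (cAMP response element) and TGANTCA (AP-1).
Egf: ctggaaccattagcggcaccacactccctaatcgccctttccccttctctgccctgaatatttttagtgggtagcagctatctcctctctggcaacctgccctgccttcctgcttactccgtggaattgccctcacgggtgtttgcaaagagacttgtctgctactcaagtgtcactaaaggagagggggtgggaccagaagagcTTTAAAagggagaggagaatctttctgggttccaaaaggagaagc
Tgfa: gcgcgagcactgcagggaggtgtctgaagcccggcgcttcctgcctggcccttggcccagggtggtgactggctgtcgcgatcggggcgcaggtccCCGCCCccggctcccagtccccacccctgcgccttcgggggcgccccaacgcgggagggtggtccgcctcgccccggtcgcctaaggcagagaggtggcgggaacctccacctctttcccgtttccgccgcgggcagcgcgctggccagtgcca
Areg: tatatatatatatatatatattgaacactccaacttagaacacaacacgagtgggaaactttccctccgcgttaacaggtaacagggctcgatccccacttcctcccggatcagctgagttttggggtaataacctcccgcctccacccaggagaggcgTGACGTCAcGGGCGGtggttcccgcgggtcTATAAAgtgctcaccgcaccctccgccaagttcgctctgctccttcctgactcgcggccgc
The Egf sequence holds 1 TTTAAA, found in 12.3% of 33469 promoters of the same length, and no match to the other motifs. The Tgfa sequence holds 1 GC box, found in 30.5% of promoters, and is 74.4% G and C, more than 96.1% of promoters, against 51.6% for Egf. The Areg sequence holds a cAMP response element (1.59% of promoters), a GC box and a TATA box (12.9%). CCAAT stood in 34.0% of promoters and AP-1 in 6.34%, and none of these 3 genes had either in this window. These matches describe letters and are not binding sites. RefSeq sequences were at hand for 7 of the 10 members; Ereg, Nrg1 and Erbb3 had none.

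Egf encodes the prototype ligand, a large precursor from which the mature peptide is released. Its probe (A_42_P831499, NM_012842; rn4 chromosome 2, 227104446 to 227104505) was printed in 10 spots. Over these spots the signal ran from 1110 to 1180 for the parotid gland, from 861 to 956 for the submandibular-labelled gland and from 688 to 775 for the sublingual gland. These became levels of 2.62 ± 0.03 (SD, n = 10 spots of 1 array), 2.02 ± 0.05 (SD, n = 10 spots of 1 array) and 1.61 ± 0.05 (SD, n = 10 spots of 1 array). The parotid array was the highest and the sublingual array the lowest, and in level the spots of no pair of arrays overlapped, the nearest spots of the submandibular-labelled and sublingual arrays being 0.25 apart. Against the parotid array, Egf was 1.51-fold lower in the submandibular-labelled gland (log2 difference -0.59) and 2.01-fold lower in the sublingual gland (-1.005). Between the latter arrays the difference was -0.41, or 1.33-fold. The sublingual value lies just past 2-fold, and it is -0.86 with normexp background correction and -0.76 with arrays centred on their median, both short of 2-fold.

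Under every setting tried Egf was lower on the submandibular-labelled than the parotid array, by log2 differences of -0.81 to -0.28. The granular duct genes that could be compared between these arrays were divided, 4 above 0 and 5 below, with a median difference of -0.01. Egf and the serous acinar products were both highest on the parotid array; the part of either list in the result was not tested. In whole-gland RNA, fewer cells of a type and less RNA per cell cannot be told apart.

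Tgfa encodes transforming growth factor alpha, which binds the EGF receptor as EGF does and in many epithelia acts on the cells that make it. Its probe (A_44_P310168, NM_012671; rn4 chromosome 4, 120437505 to 120437564) was printed once per array, so it has no spread of its own. Its signal was 207 in the parotid, 581 in the submandibular-labelled and 800 in the sublingual gland, or levels of 0.15, 1.35 and 1.71. Tgfa was lower in the parotid gland than in both other glands, although its parotid signal was still above the 75th percentile of that array. The difference from the parotid array was 2.29-fold (log2 1.20) for the submandibular-labelled and 2.95-fold (1.56) for the sublingual array. Repeat spots of other probes at such levels had a median SD of 0.05 to 0.09, which covers neither labelling nor animals. Sublingual and submandibular-labelled arrays differed by 0.36, or 1.29-fold. With normexp background correction the first of these falls to 0.99, just short of 2-fold, and the second stays above it at 1.35.

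Because both genes sit on the same arrays, their unequal change does not depend on how the arrays are scaled to each other by a constant. Relative to Egf, Tgfa was 3.46-fold higher on the submandibular-labelled array than on the parotid array, and 5.91-fold higher on the sublingual array. Over all settings tried these log2 differences ran from 1.48 to 1.94 and from 2.21 to 2.71. Duct genes (7 of 7 measured) summed to 481, 918 and 853 on the parotid, submandibular-labelled and sublingual arrays, and myoepithelial and basal genes (3 of 6 measured) to 18.6, 56.4 and 45.9. Like Tgfa, both lists and the mucous genes had their lowest sum on the parotid array. Tgfa was highest on the sublingual array, and the duct sum and the myoepithelial and basal sum on the submandibular-labelled array. The mucous sums of these arrays, 1600 and 1607, were nearly equal. The part of these 3 lists in the result was not tested.

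Nrg1 encodes neuregulin 1, the ligand of ErbB3 and ErbB4 best known from nerve and its Schwann cells, and is made in many isoforms. Its brighter probe (A_44_P477819, NM_031588; rn4 chromosome 16, 64124972 to 64125031) gave signals of 53.1, 123 and 96.0 on the parotid, submandibular-labelled and sublingual arrays, or levels of -1.81, -0.89 and -1.35. The submandibular-labelled array was highest: 1.89-fold above the parotid array (log2 0.92) and 1.37-fold above the sublingual array, which itself was 1.38-fold above the parotid array (0.46). The second probe (A_44_P438143, 31029 bases away at 64093883 to 64093942) was dimmer. Its levels were -2.74 ± 0.29 (SD, n = 10 spots of 1 array), -2.10 ± 0.14 (SD, n = 9 spots of 1 array) and -2.67 ± 0.19 (SD, n = 9 spots of 1 array). Here too the submandibular-labelled array was highest, by 0.64 over the parotid and 0.57 over the sublingual array, but its spots overlapped those of the parotid array and cleared those of the sublingual array by only 0.0041. The sublingual and parotid arrays differed by 0.07 on this probe, with overlapping spots.

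Near background the size of the Nrg1 difference depends on the background method: between the submandibular-labelled and parotid arrays the brighter probe gave 0.35 with normexp, 1.07 with quantile normalization and 1.23 with median centring. Schwann cell and axon genes (8 of 8 measured, 5 well above background on each array) summed to 27.3, 12.2 and 9.33 on the parotid, submandibular-labelled and sublingual arrays. Sox10, a transcription factor of Schwann cells, made up most of this sum, with levels of 4.51, 3.02 and 2.41, and the other 7 genes summed to 4.41, 4.08 and 4.01. Pmp22, a myelin protein gene, was higher than on the parotid array by 0.34 and 0.18, and Prx, another myelin gene, by at least 0.59 and at least 0.70. Of the list's defining markers S100b and Nefl were not well above background on any array. Their part in the result was not tested.

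Hbegf encodes heparin-binding EGF, a ligand that binds heparan sulphate as well as its receptor. Its single spot (A_44_P184505, NM_012945; rn4 chromosome 18, 29143654 to 29143713) gave signals of 28.3, 13.4 and 11.3 in the parotid, submandibular-labelled and sublingual glands, with levels of -2.72, -4.09 and -4.43. Only the first was well above background. Setting the parotid level against the lowest level well above background on the other arrays, Hbegf in the parotid gland exceeded the submandibular-labelled gland at least 1.82-fold and the sublingual gland at least 2.03-fold. The second bound drops below 2-fold with normexp (log2 -0.59), quantile normalization (-0.76) and median centring (-0.78). Between the submandibular-labelled and sublingual arrays no fold is given, since both were within background.

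Areg (amphiregulin), Ereg (epiregulin) and Btc (betacellulin), ligands of the EGF receptor that many epithelia induce on injury or hormonal stimulation, were not well above background on any array. Areg (A_42_P791677) gave signals of 4.29, 4.45 and 4.29, and Ereg (A_44_P540992) of 4.36, 4.89 and 4.67. Btc (A_43_P12186) gave 6.42, 4.65 and 4.38. All of these lay well under the lowest signal called above background, so only this bound is known, and no comparison among the glands was made. In rn4 the 3 probes lie within 288749 bases of chromosome 14, from the Btc probe at 18233593 through Areg at 18466438 to the end of the Ereg probe at 18522341. In RefSeq's gene order Btc, Areg, Ereg and Epgn (epigen, a further ligand) follow each other with no other protein-coding gene between them. The probe for Epgn, which the array lists under an older name, was likewise within background on all arrays, with levels of -5.58, -5.73 and -5.90.

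Of the receptors, Erbb2 was the most precisely measured. Its probe (A_44_P118540, NM_017003; rn4 chromosome 10, 87241824 to 87241883) was printed in 10 spots, with signals of 1020 to 1270 in the parotid, 856 to 936 in the submandibular-labelled and 825 to 910 in the sublingual gland. The levels were 2.57 ± 0.09 (SD, n = 10 spots of 1 array), 2.01 ± 0.04 (SD, n = 10 spots of 1 array) and 1.84 ± 0.05 (SD, n = 10 spots of 1 array). The parotid spots stood clear of both other arrays, while those of the submandibular-labelled and sublingual arrays were parted by only 0.0096. Against the parotid array, Erbb2 was 1.47-fold lower in the submandibular-labelled gland (log2 -0.56) and 1.66-fold lower in the sublingual gland (-0.73), and the sublingual and submandibular-labelled arrays differed by -0.17. None of these reached 2-fold. Relative to Egf, Erbb2 differed from the parotid array by only 0.04 in the submandibular-labelled gland and by 0.27 in the sublingual gland.

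Egfr encodes the receptor for EGF and for all the other ligands here except neuregulin 1. Its brighter probe (A_44_P346408, NM_031507; rn4 chromosome 14, 97788051 to 97788110) gave signals of 165, 175 and 126, or levels of -0.17, -0.38 and -0.95. The sublingual array was lowest, by 0.78 (1.72-fold) against the parotid array and by 0.57 (1.49-fold) against the submandibular-labelled array. The submandibular-labelled array was lower than the parotid array by 0.21, a direction that turns to 0.10 higher with median centring. The second probe (A_44_P194138, 97786789 to 97787499, spanning 711 bases of the genome where most probes span 60) had levels of -1.71 ± 0.15 (SD, n = 9 spots of 1 array), -2.23 ± 0.17 (SD, n = 10 spots of 1 array) and -2.69 ± 0.25 (SD, n = 10 spots of 1 array). The order of the arrays was the same on this probe. Its sublingual spots did not overlap the parotid spots (difference -0.98), whereas the spots of the submandibular-labelled array overlapped both others.

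Erbb3, the neuregulin receptor with the weak kinase, gave signals of 3.50, 3.90 and 3.70 (A_44_P557246, NM_017218; rn4 chromosome 7, 1859093 to 1859343) and was within background on all arrays. Erbb4, the other neuregulin receptor and no member of the set, was within background too, with levels of -5.50, -5.64 and -4.36. Each of these receptors was read by a single probe.

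Counted over the members, 1 of the 6 that could be compared was at least 2-fold apart between the submandibular-labelled and parotid arrays (Tgfa, higher), where 23.2% of the 20677 gene names compared were, 9.72% higher and 13.5% lower. Between the sublingual and parotid arrays 3 of 6 were at least 2-fold apart, Tgfa higher and Egf and Hbegf lower, against 24.1% of 20931 gene names, 11.2% higher and 12.9% lower. With median centring only Tgfa is left of these 3. Between the sublingual and submandibular-labelled arrays 0 of 5 were, against 2.29% of 19942 gene names, 1.7% higher and 0.587% lower. With so few members these counts are read only beside their background and set the family apart in no comparison. The median log2 difference of the members was -0.38, -0.76 and -0.41 in the 3 comparisons, and that of all gene names compared was -0.01, 0.02 and 0.02. Centring each array on its median instead of the 75th percentile moves the median difference of gene names well above background on all arrays from 0.05 to 0.36 and from 0.06 to 0.30 in the comparisons with the parotid array, and moves the members with it.

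**Figure D2:**
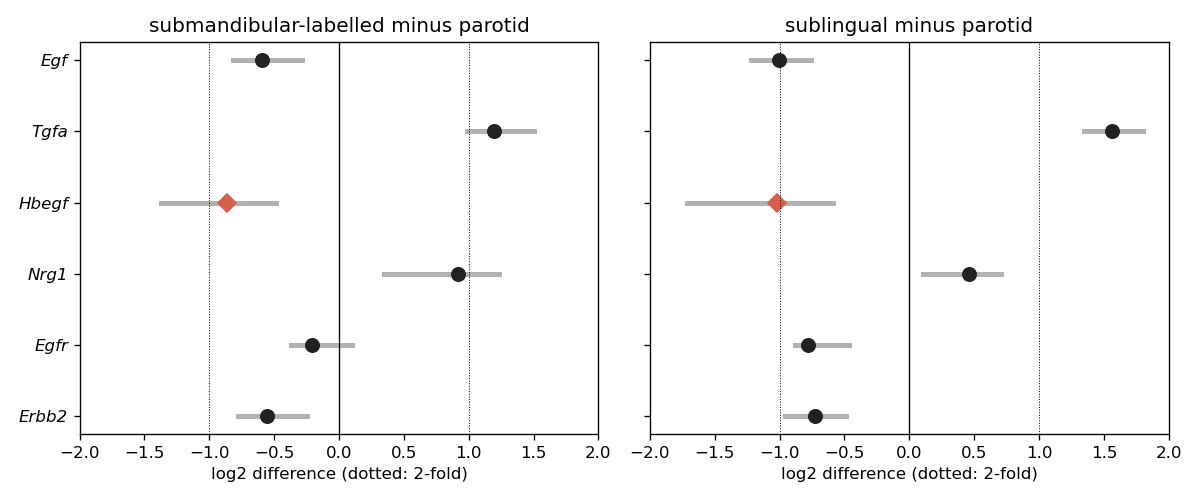
Log2 difference of each member from the parotid array for the submandibular-labelled (left) and sublingual (right) arrays, 1 array per gland; black points are the values reported, red diamonds the lower bound for Hbegf, and grey bars the range over all processing settings tried. Tgfa lies at 1.20 and 1.56, above 0 under every setting, and Egf at -0.59 and -1.005, below 0 under every setting, while the bar of Egfr crosses 0 on the left.

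Against the 17145 gene names well above background on all arrays, Tgfa lay towards the upper end of the differences from the parotid array: 93.3% of gene names were lower in the submandibular-labelled and 95.8% in the sublingual comparison. For Egf these shares were 20.9% and 9.97%, and for Erbb2 22.3% and 16.4%. Egfr had 37.3% and 14.9% of gene names below it and Nrg1 89.0% and 70.2%. No member was beyond the 5th to 95th percentile (-1.49 to 1.37) in the submandibular-labelled comparison, and only Tgfa was in the sublingual one (-1.41 to 1.45). Between the sublingual and submandibular-labelled arrays, where gene names ranged from -0.52 to 0.72 over the same percentiles, Egfr at -0.57 was the single member outside.

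**Figure D3:**
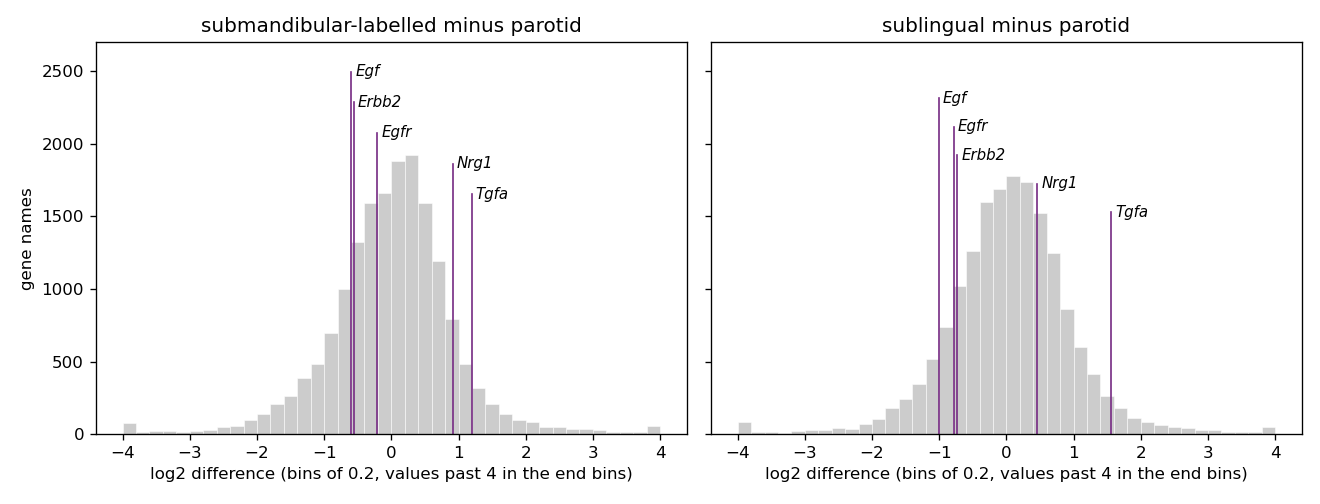
Number of gene names by log2 difference from the parotid array (bins of 0.2) for the 17145 gene names well above background on all arrays, with the 5 members of that set as vertical lines whose heights carry no value. Egf, Egfr and Erbb2 lie left of 0 and Nrg1 and Tgfa right of it on both sides, and with median centring Egfr on the left panel moves to 0.10.

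Likeness of level pattern over the 3 arrays was read after each gene was centred on its own mean, and neighbours were named among RefSeq symbols only. The genes so named nearest to Egf were Irgm, Mlxipl and Ly6c, at Euclidean distances of 0.0097, 0.012 and 0.019. Those nearest to Tgfa were Rtn4, Ivns1abp and Abhd14a, at 0.028, 0.031 and 0.035. Such patterns are common with 3 arrays: of 17144 gene names, RefSeq symbols or not, 638 lay within 0.2 of Egf and 214 within 0.2 of Tgfa.

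The wider pathway was read from a list of 73 genes, 63 of which had a probe under their name. Of 58 that could be compared between the submandibular-labelled and parotid arrays, 5 were at least 2-fold higher and 5 lower, or 17.2% against the background of 23.2%; their median was 0.12, beside 0.11 over gene names that are current RefSeq symbols. In the sublingual comparison 5 of 57 were higher and 9 lower, or 24.6% against 24.1%. With median centring these splits become 13 higher and 3 lower, and 8 higher and 4 lower. All gene names lean the same way under that setting, with 3592 higher and 1737 lower of 20646. In the sublingual comparison 3628 are higher and 1779 lower of 21149. Between the sublingual and submandibular-labelled arrays 0 of 58 were 2-fold apart, against 2.29% of 19942 gene names. Their median was -0.14, beside -0.06 over gene names that are current RefSeq symbols. The list as a whole thus held about as many differences as gene names at large.

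The list on ligand release held sheddases and rhomboid proteins, and also Timp3, an inhibitor of sheddases, and Cd9, a tetraspanin that associates with membrane-anchored ligands. All 7 compared were above 0 in the submandibular-labelled comparison and 5 of 7 in the sublingual one, against 49.6% and 51% of all gene names compared. Their medians were 0.75 and 0.54, and some values were near 0, such as Rhbdf1, an inactive rhomboid protein, at 0.09 and -0.04. Timp3 was at 0.10 and -0.53. Rhbdf2, another inactive rhomboid protein, is listed on the array under an older name and was outside this count, at -0.71 and -0.85. With probes named through RefSeq, which brings it in, 7 of 8 and 5 of 8 were above 0, against 55.2% and 53.1% of gene names. The medians of the list were then 0.53 and 0.38. Rhbdl2, a rhomboid protease that cuts within the membrane, was 2.95-fold and 3.22-fold higher than on the parotid array, and Adam15, a metalloprotease, 2.64-fold and 2.86-fold. Adam17, the main sheddase of transforming growth factor alpha, was higher by 0.75 and 0.54, under 2-fold. Adam10, another sheddase of the list, was within background on all arrays on both of its 2 probes and was not compared. Of the 27 adaptors and kinases, 2 were higher by 2-fold or more in the submandibular-labelled gland, among them Map2k2, a kinase of the MAP kinase cascade, at 2.28-fold. On the sublingual array 2 were higher, among them the small GTPase gene Hras at 2.15-fold, and 3 were lower. The shares past 2-fold in either direction were thus 7.4% and 18.5%, below the 23.2% and 24.1% of all gene names compared. Pik3r1 (at least 2.28-fold), Pik3cb (2.16-fold), both subunits of phosphoinositide 3-kinase, and the docking protein Gab1 (2.08-fold) were the lower ones on the sublingual array. A second, slightly dimmer probe of Pik3cb was past 2-fold lower in both comparisons, at -1.565 and -1.76. The brighter probe, used for the counts, was at -0.72 and -1.11. With median centring 7 of the 27 were higher in the submandibular-labelled and 3 in the sublingual comparison, and 0 were lower in either. Of all gene names, 3592 of 20646 and 3628 of 21149 were higher under that setting, and 1737 and 1779 lower. With this centring Pik3r1 was at -0.95, the brighter probe of Pik3cb at -0.87 and Gab1 at -0.81 on the sublingual array. With quantile normalization 0 of the 27 were higher in either comparison, and 0 and 3 were lower. Of all gene names, 2197 of 20610 and 2312 of 21162 were then higher, and 2451 and 2427 lower.

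Of the pathway's inhibitors, 0 of 12 were higher and 3 lower by 2-fold or more in the submandibular-labelled gland, and 0 of 11 higher and 4 lower in the sublingual gland. Of all gene names 9.72% and 11.2% were higher and 13.5% and 12.9% lower, so counts this small are given only beside that background. Dusp5 and Dusp6, phosphatases of the MAP kinases ERK1 and ERK2, were lower by 2.55-fold and 2.38-fold in the submandibular-labelled gland, and by 2.88-fold and 2.29-fold in the sublingual gland. Lrig2 was past 2-fold on the former array (2.10-fold lower), and Socs4 (at least 2.59-fold) and the ubiquitin ligase Cblb (2.15-fold) were so on the latter. With median centring the lower counts become 1 and 2, beside 1737 of 20646 and 1779 of 21149 gene names. Dusp5 (-1.04 and -1.28) and Socs4 (-1.13, sublingual) then remain past 2-fold. Dusp6 (-0.94 and -0.95), Lrig2 (-0.76) and Cblb (-0.86) do not. Of 11 early response genes, which growth factor signalling can induce, 27.3% were past 2-fold in each comparison. The shares of all gene names were 23.2% and 24.1%, so this count too is given only beside its background. Ier3 was 2.33-fold and 2.18-fold higher. Myc was 13.8-fold and 12.9-fold lower and Atf3 4.69-fold and 4.23-fold lower than on the parotid array, the largest differences of the whole list in both comparisons. The remaining 8 early response genes, Fos, Jun and Egr1 among them, were under 2-fold in both.

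**Figure D4:**
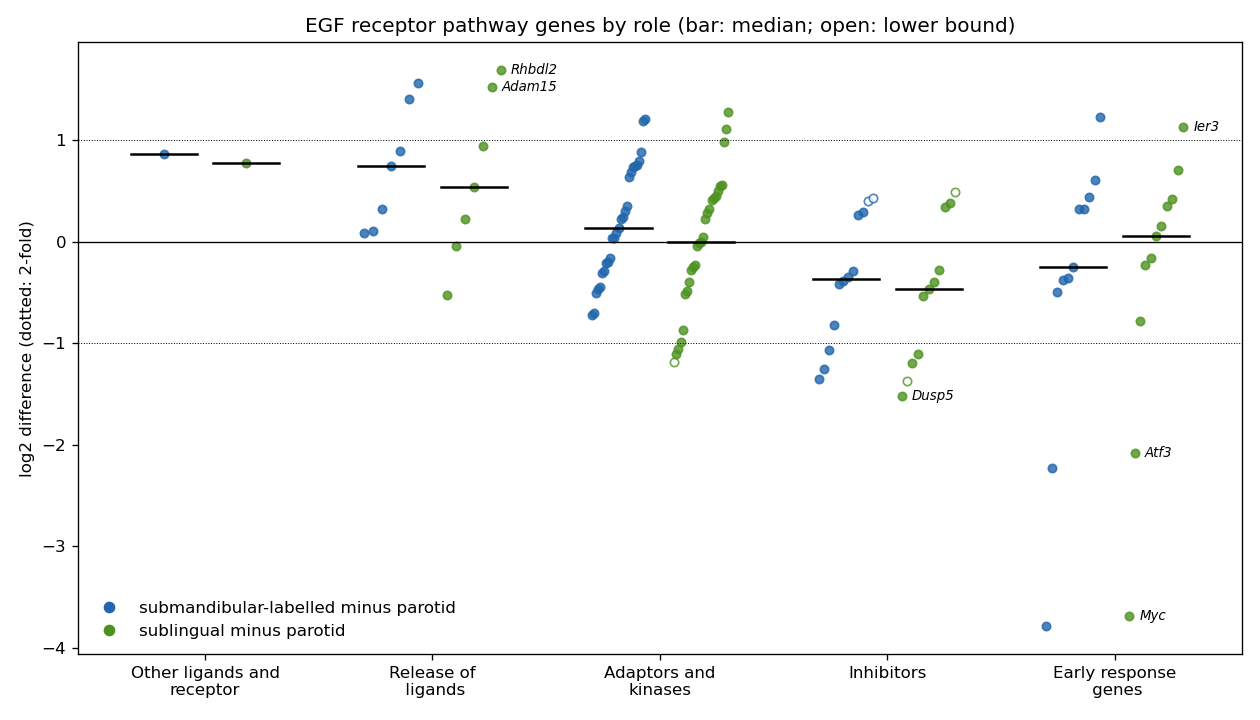
Log2 difference from the parotid array of each measured pathway gene by role, for the submandibular-labelled (blue) and sublingual (green) arrays, 1 array per gland; bars are medians, open points lower bounds and dotted lines 2-fold. Medians of the ligand-release list are 0.75 and 0.54 and of the inhibitors -0.37 and -0.47, the latter -0.05 and -0.22 with median centring, and Myc and Atf3 lie far below the rest.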

How the data were processed

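Rat whole-genome arrays (Agilent design 014879, Cy3 only) were scanned once, on 1 slide, and read by the authors with Feature Extraction 10.1.1.1, protocol GE1-v5_10_Apr08, per the file headers; probe coordinates are rn4. The deposited intensity is that program's processed signal, already background-subtracted. From it, log2 was taken here of the deposited intensity, spots of 1 probe were averaged, and each array's 75th percentile over its 41012 probes was subtracted. Controls were dropped, as were outlier-flagged spots (68, 79 and 73 per array); none of the remaining spots was saturated. The authors' deposited value table holds a linear ratio, each array's processed signal over a constant (190, 236 and 250), with medians of 0.152, 0.122 and 0.128, no centring over genes and the same direction. A gene with several probes takes the brighter one. A gene not well above background on 1 array of a pair is bounded by that array's lowest level well above background, and one dim on both is not compared. A difference is called at 2-fold. Members were named by gene symbol, and from the pathway list up to 4 genes per role, direction and comparison with the parotid were named, by size past 2-fold. Members and lists were chosen with earlier results of these data known. The gene-level script was tested on simulated data. Alternatives were normexp (offset 50; limma 3.58.1, R 4.3.3), quantile normalization, median centring, the value table, the median of probes, no filter, flags kept, RefSeq naming and 4-fold; the rest ran in Python 3.11.15 with pandas 2.3.3. Some genes of the lists are counted but not reported here by name.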

Additional observations from a re-analysis of the deposited data

How the results depend on the processing

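Each result was recomputed under 9 alternatives. The count of members 2-fold apart between the submandibular-labelled and parotid arrays (1) became 0 with normexp, 2 with quantile normalization, 2 with median centring, 2 without filter or bound and 0 at 4-fold. For sublingual against parotid (3) it became 1 with normexp, 1 with median centring and 0 at 4-fold. The pathway counts (10, 14 and 0) became, for the first, 16 with median centring and 2 at 4-fold. The second became 8 with normexp and 2 at 4-fold, and the third 1 with median centring, 1 with the median of probes and 2 without filter; the cause was not tested. The other 39 counts stayed within 1.5 times of the main value. Of 29 values per member 3 changed sign: Egfr in the submandibular-labelled against the parotid gland (-0.21 against 0.10 with median centring), and Nrg1 and Egfr relative to Egf between the sublingual and submandibular-labelled arrays (-0.04 against 0.13, and -0.16 against 0.0086, with normexp). No paired analysis was possible because each gland has 1 array. Signal near background limits Nrg1 and Hbegf and leaves only a bound for Areg, Ereg, Btc and Erbb3.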

Other observations

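Nrg2, a neuregulin close to Nrg1, was measured by 3 probes on rn4 chromosome 18 that did not give the same order of the glands. The brightest (28650557 to 28650616) gave signals of 95.2, 212 and 214 on the parotid, submandibular-labelled and sublingual arrays. The next (28656991 to 28657050) was well above background only on the submandibular-labelled array, at 39.3 against 12.6 and 19.6. The third (28827813 to 28827872) was so only on the parotid array, at 19.3 against 7.87 and 8.65. On the first probe the submandibular-labelled array was 1.82-fold above the parotid array. On the second it was at least 1.86-fold above the parotid array and at least 2.15-fold above the sublingual array. On the third the parotid array exceeded the submandibular-labelled array at least 1.24-fold and the sublingual array at least 1.38-fold. A further probe, described as neuregulin 1 but not carrying its symbol, was within background on all arrays.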
